A study of Drosophila melanogaster with 33 samples.

Results

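The comparison described here set RNA that fruit fly embryos (Drosophila melanogaster) made after an injection of 5-ethynyl uridine (5-EU) against the RNA left behind by the pull-down, in libraries made after rRNA depletion. Its members were the 4 eluate and 4 flow-through libraries of that set, 8 of the 33 libraries of the series, taken by their labels and paired by stage. Embryos of the wild-type strain Oregon R were injected with 5-EU at 250 mM, the same dose in all 8 libraries. They were then staged by shape as nuclear cycles (NC) 7-9, NC 9-10, syncytial blastoderm or cellular blastoderm. Biotin was attached to the labelled RNA, which streptavidin beads captured as the eluate, and the unbound RNA formed the flow-through. The series set out to find transcripts that the embryo's own genome makes during its first activation. The 4 inputs of the set were left out because earlier work on these files had found that 2 of them resemble poly(A) libraries.

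Each stage had 1 eluate and 1 flow-through of 1 preparation, and the labels do not say how many embryos or collections a preparation held. A single stage therefore had no replicate. A test over the 4 stages treats stages as replicates, so its spread mixes differences between stages with differences between preparations. The libraries came from whole embryos, in which fewer cells of a type and less RNA per cell cannot be told apart. All 4 preparations were injected with 5-EU, and RNA held back by the beads without a label was not measured in them.

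The fly embryo begins life with RNA that the mother loaded into the egg, and its nuclei first divide in a shared cytoplasm without cell membranes. A small number of short genes is transcribed while the nuclear cycles are still fast, and a far larger number is transcribed once the cycles slow and membranes enclose the nuclei at the blastoderm stages. 5-EU is built into RNA made after the injection, so eluates hold such RNA together with background, and maternal RNA made earlier carries no label. rRNA depletion, unlike poly(A) selection, also retains RNA without a long tail, such as the small RNA of the splicing and tRNA-processing machinery.

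The depth was estimated from the steps between low values at 2.98, 2.69, 2.13 and 31.2 M reads (M, 1000000) in the eluates from NC 7-9 to cellular blastoderm and at 29.8, 34.3, 10.6 and 27.6 M in the flow-throughs. A single read in a gene of 1 kilobase then stood for a level of 0.0825 to 1.17 in eluates and 0.0438 to 0.137 in flow-throughs. Levels are deposited values less the added 1, rescaled to a common total and by the median of ratios. They are per kilobase, which sets genes of unlike length on 1 scale, but in very short genes a few reads give a high level. Differences are on the log2(level + 1) scale, eluate minus flow-through, and understate the change of low genes. The rRNA-depleted labels held, since RNase MRP RNA had 1187 to 11240 parts per 1000000 in these 8 libraries and 5.13 to 150 in the 14 poly(A) eluates and flow-throughs. Of 7 follicle cell markers, Cp36, Cp38, Vm26Aa, Vm32E and Vml stood at 0 in all 8 libraries, and the 7 summed to 0 in every eluate and at most 0.117 in a flow-through. A longer list of 18 follicle cell markers, 10 of them at 0 in all 8 libraries, summed to 6.99 to 136 in eluates and 50.9 to 145 in flow-throughs. Its member fs(1)N alone had 4.61 to 136 and 50.8 to 145. The 5 pole cell markers summed to 121 to 1604 in eluates and 425 to 1666 in flow-throughs. The 6 markers of yolk, hemocyte and amnioserosa cells ran from 1.47 to 148 and from 0.856 to 12.9, and the 6 of older tissues from 0.556 to 42.5 and from 0.216 to 2.40. Of the 42.5, in the cellular eluate, elav held 38.7. The 6 blastoderm markers, several of which are themselves early zygotic genes described here, summed to 58.1 to 8878 and 42.9 to 409. The part that any mixture of cells has in the differences was not tested.

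The levels of genes in eluate and flow-through were closer to each other at NC 7-9 than at the blastoderm stages. Across the 7717 genes tested, the Pearson correlation between both fractions was 0.978 at NC 7-9, 0.942 at NC 9-10, 0.715 at syncytial blastoderm and 0.649 at cellular blastoderm, as a description over genes of 1 pair each. The standard deviation of the differences over those genes was 0.54, 0.86, 1.97 and 2.05 in the same order. By size alone, with a level of 5 or more in the higher fraction, 58 genes (0.752% of 7717) lay at least 2-fold above the flow-through at NC 7-9, 214 (2.77%) at NC 9-10, 1414 (18.3%) at syncytial blastoderm and 2903 (37.6%) at cellular blastoderm. The numbers at least 2-fold below were 204 (2.64%), 236 (3.06%), 1206 (15.6%) and 1816 (23.5%). The eluates of the first 3 stages held fewer reads than their flow-throughs, and 20, 22, 181 and 22 genes had a level of 5 or more in the flow-through and 0 in the eluate. The plot of differences at each stage shows the spread widening.

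**Figure D1:**
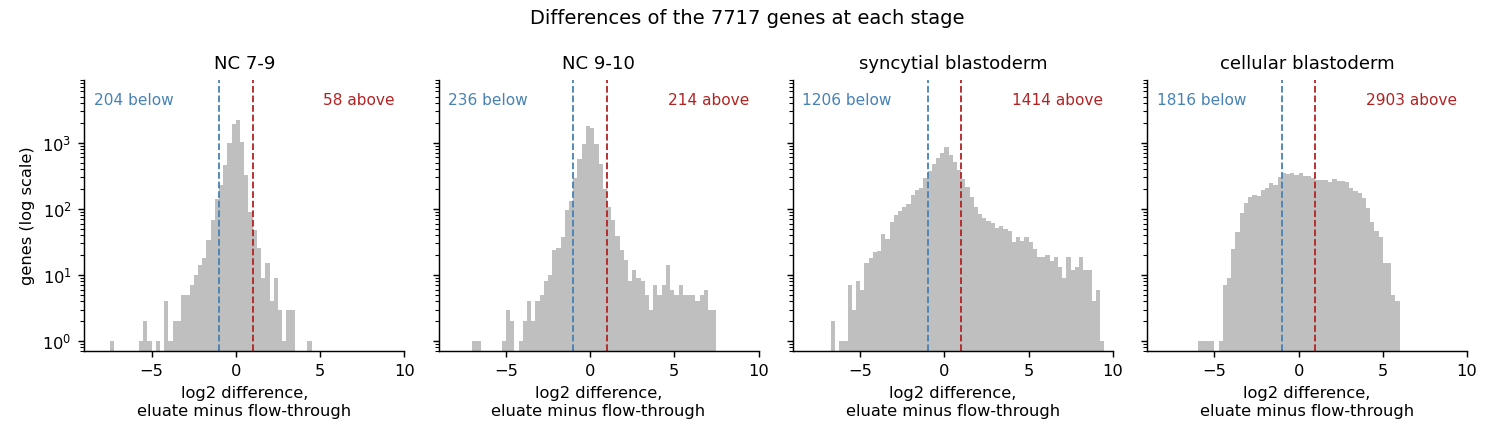
Differences of the 7717 genes tested, eluate minus flow-through on the log2(level + 1) scale, at each of the 4 stages (1 pair of libraries each); the vertical axis counts genes on a log scale. The distribution is narrow at NC 7-9 (standard deviation 0.54) and wide at cellular blastoderm (2.05), with 58 and 2903 genes counted above the flow-through.

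The genes above the flow-through at both blastoderm stages numbered 1055, which were 74.6% of those at syncytial and 36.3% of those at cellular blastoderm. Of all 7717 genes, 923 were above at both blastoderm stages and at neither earlier stage. Genes above at syncytial and below at cellular blastoderm numbered 63, and genes with the opposite order 322, of 7717. Over all genes, 18.3% lay above and 15.6% below at syncytial, and 37.6% and 23.5% at cellular blastoderm. Whether the counts go beyond these shares was not tested. The syncytial eluate, at about 2.13 M reads, also stood at 0 for 181 genes with 5 or more in its flow-through. Flow-throughs resembled each other across stages (r across genes 0.809 to 0.998) and eluates less so (0.453 to 0.951).

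No gene passed the test over the 4 stages. With limma, stage as the pairing term and Benjamini-Hochberg adjustment over 7717 genes, 0 genes were called higher (0%) and 0 lower (0%) at an adjusted p below 0.05, and the smallest adjusted p was 0.108. At an unadjusted p below 0.05, 379 genes lay above and 323 below. Without NC 7-9, where the fractions differed least, 115 of 7717 genes were called higher and 3 lower. All 115 lay above at each of the 3 later stages, but that fit used these same stages, so this adds no separate support. The 115 included 26 of 41 early zygotic genes of less known function tested and 11 of 15 cellularisation genes. They also held 9 of 35 dorsoventral genes and 8 of 12 of sex determination and dosage compensation, and 38 were in no list. The 3 lower ones were guide RNAs of spliceosomal RNA, scaRNA:MeU2-C28, scaRNA:PsiU2-38.40.42 and scaRNA:PsiU5-44. Of these, scaRNA:MeU2-C28 stood at 0 in every eluate and passed the filter through its flow-throughs alone. Leaving out any other single stage gave 0 calls. Rescaling to 1000000 alone called 80 genes higher and 42 lower, with the median gene at −0.38, and the values as deposited called 48 higher and 6734 lower, with the median gene at −4.86. Every direction below is therefore relative to the bulk of genes, whose median was 0.05 over the 4 stages and −0.01, −0.02, 0.02 and 0.40 by stage.

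A description that needs no test is the set of genes on 1 side at every stage. Of 7717 genes, 841 (10.9%) lay above the flow-through at all 4 stages and 969 (12.6%) below, with no lowest level set. All 4 eluates exceeded all 4 flow-throughs in 189 genes (2.45%) and lay below all of them in 344 (4.46%). At least 2-fold above at all 4 stages were 58 genes (0.752%, of which 29 are among the 58 counted at NC 7-9), and at least 2-fold below were 24 (0.311%). Without NC 7-9 these counts were 211 and 65, and without each other stage 61 to 66 and 38 to 62. The genes nearest to the limit were Hsp70Ab and sna on the inside, whose smallest differences were 1.0 and 1.01, and CG11018 and Osi18 on the outside at 0.93 and 0.92. Below, CR46048 at −1.01 and a guide RNA of spliceosomal RNA at −1.04 were just inside and CR45631 at −0.98 and CR46109 at −0.96 just outside.

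The 58 genes above were short and mostly without introns, which the rule did not use. Their median exonic length was 992 bases and 75.9% had no intron in any transcript, against 2022 bases and 11.7% over all genes tested. The 45 nuclear genes among them had 1028 bases and 68.9%. The 24 genes at least 2-fold below at all 4 stages, 9 of them small non-coding RNAs, were shorter still, at 414 bases, and 50% had no intron. Shortness was therefore not particular to the genes above. Genes above by size at NC 7-9, NC 9-10, syncytial and cellular blastoderm had a median exonic length of 1132, 1242.5, 2141 and 2113 bases. Of them, 55.2%, 41.1%, 16.2% and 13.5% had no intron. Genes below by size were shorter at each stage, at 735, 901, 1335 and 1821 bases. Fewer of those below had no intron, 25.12%, 31.78%, 14.99% and 9.14% by stage. Greater length at the blastoderm stages was therefore not particular to the genes above. Of the 45 nuclear genes 15.6% were on the X chromosome, against 17.1% of all genes. By role, 17 were early zygotic genes of less known function, all 13 protein-coding genes of the mitochondrial genome, 5 dorsoventral, 5 of cellularisation, 3 of sex determination and 3 of the Bearded and Enhancer of split complexes. The pair-rule gene slp1, Hsp70Ab, 3 long non-coding RNAs and CG43659, CG9821, Neu2, l(1)sc, link, noc and scyl made up the rest. Of the 58, 11 overlap another gene on the same strand, and whether reads were counted by strand is not given in the sources used here.

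Early zygotic genes lay highest. The short genes of less known function had the highest list median, 4.44 over 41 genes tested of 42 listed, against 0.05 for all genes, and by stage their medians were 0.19, 5.17, 7.78 and 4.13. Of the 41, 22 lay above at all 4 stages (10.9% of all genes did), 17 of them at least 2-fold (0.752% of all genes), and none below. This and the other gene lists were chosen with earlier results of these data known. Their medians and counts are therefore a description and no independent support. CG13712 (FBgn0035570, 3L:4709209-4709890, minus strand of dm6, 682 bases in 1 exon) had the highest mean difference of the 7717 genes. Its level was 19.8, 459.8, 9689 and 2089 in the eluates, from NC 7-9 to cellular blastoderm, and 0.0754, 1.99, 25 and 68.9 in the flow-throughs. Each eluate was above the flow-through of its stage, the syncytial eluate was highest, and the NC 7-9 eluate lay below the flow-throughs of both blastoderm stages. At NC 7-9 about 24 reads stood behind the eluate level and about 1 behind the flow-through. The differences were 4.28, 7.27, 8.54 and 4.90, with a mean of 6.25 ± 0.71 (SE, n = 4; limma adjusted p 0.207).

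Its neighbours on 3L, CG13711 and CG13713, followed the same order of stages. CG13711 had levels of 10.9, 302, 7239.6 and 2428 in eluates and 0.187, 0.742, 20.5 and 61.5 in flow-throughs, and a mean difference of 6.11 ± 0.80. CG13713 had 7.38, 375, 7560.1 and 1983 in eluates against 0.337, 1.82, 37.7 and 127, with 5.32 ± 0.84. All 3 are annotated within the span of RhoGEF64C, CG13712 on the opposite strand, so part of their reads could belong to that gene. CG14317, on 3R, reached 4.41, 243, 19818 and 13882 in eluates and 0, 0.399, 31.2 and 335 in flow-throughs, with a difference of 6.13 ± 1.0. It was listed at 0 in the NC 7-9 flow-through. Elba3, a subunit of the ELBA chromatin boundary complex, had 1.17, 144, 16083 and 5963 in eluates against 0, 0.637, 30.6 and 104, a difference of 5.60 ± 1.12. The proneural gene amos had 3.59, 181, 4662 and 571 in eluates against 0, 0.613, 16.1 and 10.8, a difference of 5.68 ± 0.91. About 3 and 5 reads stood behind the NC 7-9 eluate levels of Elba3 and amos, so that stage carries little weight for them.

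The genes that count X chromosomes, sisA and sc, lay above the flow-through from NC 7-9 on. sisA (FBgn0003411, X:11321579-11322357, minus strand, 779 bases, no intron) encodes an activator that reports the number of X chromosomes to the sex switch gene Sxl. Its level was 11.6, 226, 4894 and 2034 in eluates and 0.264, 1.69, 21.2 and 151 in flow-throughs. The eluate was higher at every stage, the flow-through was highest at cellular blastoderm and the eluate at syncytial blastoderm. The differences were 3.32, 6.40, 7.79 and 3.74, with a mean of 5.31 ± 0.76 (SE, n = 4; limma adjusted p 0.207). sc, another such activator, had 2.75, 142, 2316 and 347 in eluates and 0.0358, 0.274, 3.34 and 7.91 in flow-throughs, a mean difference of 5.75 ± 1.09. dpn, an autosomal repressor in the same count, had 5.82, 43, 1302 and 1021 in eluates against 0.202, 0.301, 2.29 and 33.6, a difference of 5.27 ± 0.93. roX1, a non-coding RNA of the dosage compensation complex, was listed at 0 in the first eluate and then had 25.2, 1074 and 1916, against 0.0426, 0.0454, 1.59 and 44.3 in the flow-throughs, a difference of 4.67 ± 1.27. Of the 12 genes of sex determination and dosage compensation, 6 lay above at all 4 stages (10.9% of all genes did), 3 of them at least 2-fold, and the list median was 3.25.

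Genes that slow the cell cycle and build the first cell membranes had a list median of 3.35 over 15 genes, 9 of which lay above at all 4 stages, as 10.9% of all genes did. Without syncytial blastoderm the median was 2.02 relative to all genes. nullo, needed to stabilise the forming furrows, had 4.0, 19.2, 586 and 141 in eluates and 0, 0.259, 2.92 and 2.43 in flow-throughs, a difference of 4.73 ± 0.85. bnk, which restrains the contractile actin network, had 1.1, 23.4, 612 and 420.2 in eluates against 0, 0.0426, 3.61 and 21.7, a difference of 4.22 ± 0.94. Both stood at 0 in the NC 7-9 flow-through and peaked in the syncytial eluate. dunk had 5.09, 311, 18376 and 11731 in eluates against 0.174, 1.78, 59.5 and 432, a difference of 5.55 ± 0.88, and it overlaps CG42748 on the same strand. halo, a regulator of lipid droplet transport, had 1.83, 74.1, 5279.6 and 4241 in eluates against 0.0835, 0.711, 18.1 and 223, a difference of 4.80 ± 0.97. Bsg25A, which encodes another ELBA subunit, had 1.67, 214, 11497 and 7284 in eluates against 0, 0.518, 29.4 and 211, a difference of 5.56 ± 1.06. In these 5 genes the syncytial and cellular eluates lay above every flow-through. About 2 reads each stood behind the NC 7-9 eluates of bnk and halo, so that stage carries little weight for them.

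**Figure D2:**
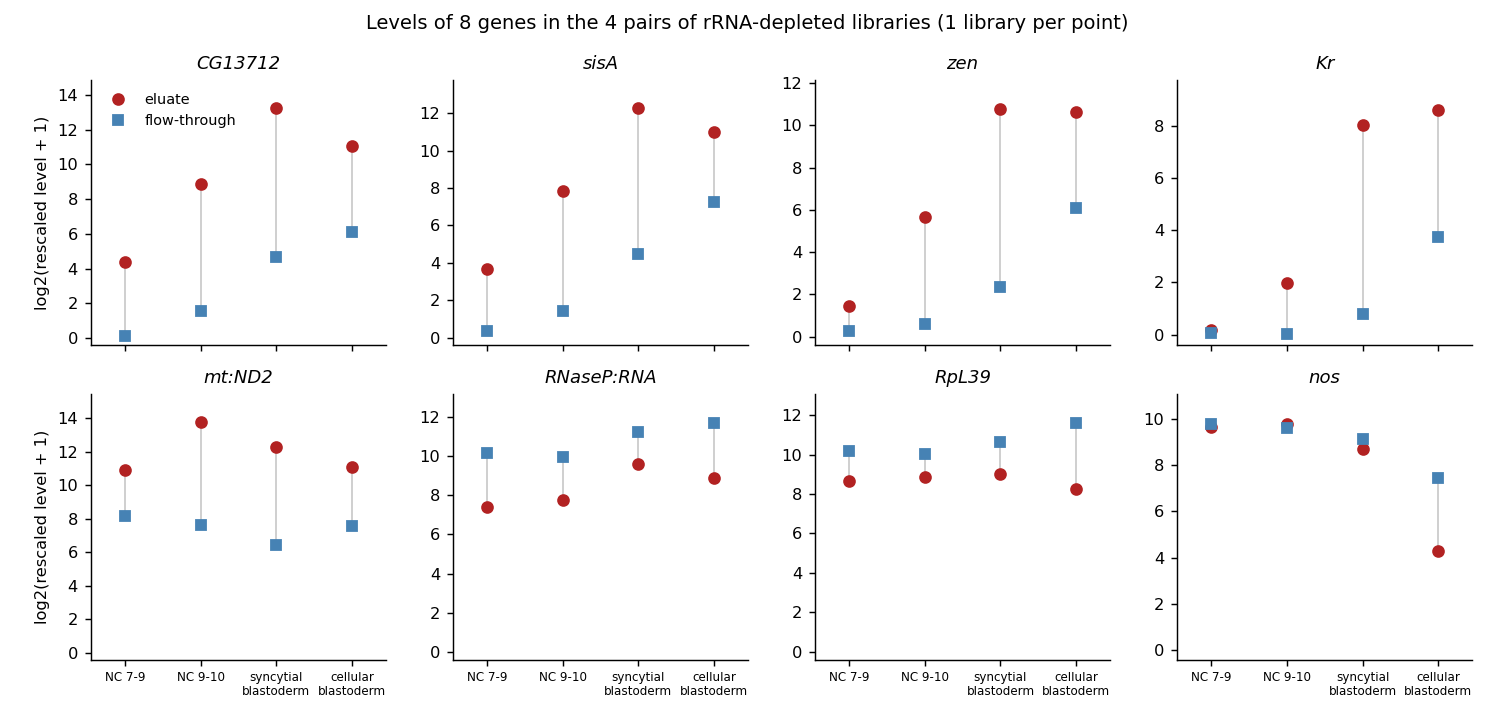
Levels of 8 genes as log2(level + 1) at the 4 stages, with circles for eluates and squares for flow-throughs of the rRNA-depleted set, 1 library per point and no error bars. Eluates lie above flow-throughs for CG13712, sisA, zen, Kr and mt:ND2 and below them for RNaseP:RNA and RpL39, while nos differs most at cellular blastoderm (−3.14). About 1 read stood behind the NC 7-9 eluate of Kr.

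Dorsoventral genes had a list median of 2.04 over 35 genes tested of 38 listed, and medians by stage of 0, 0.27, 4.61 and 3.57. Of the 35, 8 lay above at all 4 stages (10.9% of all genes did) and 5 of those at least 2-fold (0.752% of all genes), sna, tld, tsg, zen and zen2. Taken relative to all genes, the median was 2.0, and 1.17 without syncytial blastoderm. The members of the BMP pathway that patterns the dorsal side differed in level at NC 7-9, which was not tested. About 8 reads stood behind the eluate level of tsg there, 13 behind tld, 1.2 behind dpp and 0 behind scw. That stage therefore carries little weight for them. tsg, an extracellular BMP carrier, had 5.09, 122, 3712 and 1393 in eluates and 0, 0.79, 8.83 and 41.6 in flow-throughs, a difference of 5.58 ± 0.88. tld, the protease that frees the ligand, had 2.18, 40.3, 1293 and 1159.5 in eluates against 0.0459, 0.104, 1.43 and 25.4, a difference of 5.34 ± 1.09. The ligands scw and dpp were at or near 0 at that stage. scw was at 0 in both fractions at NC 7-9 and then had 48.2, 2258 and 704 in eluates against 0.138, 3.11 and 16.4 in flow-throughs, a difference of 4.97 ± 1.32, and dpp had 0.133, 4.76, 292 and 205 in eluates against 0, 0.0414, 0.227 and 7.24, a difference of 3.80 ± 1.21. zen (3R:6752864-6754194, minus strand), the homeobox gene of the dorsal-most cells, had 1.78, 49.5, 1767 and 1573 in eluates against 0.203, 0.518, 4.12 and 67.2, a difference of 4.81 ± 1.05 (limma adjusted p 0.455). sna, the repressor that defines the mesoderm, had 1.01, 4.65, 88.2 and 56.8 in eluates against 0, 0.0526, 0.0824 and 4.27, a difference of 3.31 ± 0.92, and its NC 7-9 eluate rests on few reads.

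By size and level, 3 of 21 gap, terminal and head genes, 4 of 9 pair-rule genes and 0 of 14 tested from the segment polarity and Hox list were above the flow-through at NC 9-10 (2.77% of all genes), and 17, 8 and 6 of them at syncytial blastoderm (18.3% of all genes). The difference between these lists was not tested. Medians at NC 9-10 were 0.95 for the 21 gap, terminal and head genes, 1.45 for the 9 pair-rule genes and −0.04 for the 14 segment polarity and Hox genes tested of 18, and at syncytial blastoderm they were 4.92, 5.04 and 2.28. No segment polarity or Hox gene lay above at all 4 stages, beside 7 gap and 3 pair-rule genes and 10.9% of all genes. These counts set no lowest level. About 1 read stood behind the NC 7-9 eluate of Kr and of run, and about 2 behind that of odd. tll, which patterns the termini, was listed at 0 in both NC 7-9 libraries and then had 31.1, 775 and 487 in eluates and 0.201, 1.54 and 23.1 in flow-throughs, a difference of 4.33 ± 1.22. Kr, a gap gene of the trunk, had 0.128, 2.99, 258 and 386 in eluates against 0.035, 0.0298, 0.717 and 12.5, a difference of 3.54 ± 1.16. kni and gt, which repress other gap genes, had differences of 3.63 ± 1.35 and 3.44 ± 1.08. Their NC 9-10 eluates stood at 1.47 and 6.96 and their syncytial eluates at 448 and 224.

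Among pair-rule genes, run, which also counts X chromosomes, had 0.179, 23.6, 381 and 203 in eluates and 0.0164, 0.0836, 2.1 and 16.4 in flow-throughs, a difference of 3.81 ± 1.05. slp1 had 1.58, 34.8, 579.9 and 317 in eluates against 0.0361, 0.154, 3.09 and 30.6, a difference of 4.19 ± 0.94. h, a transcriptional repressor, was at 0 in both NC 7-9 libraries and then at 8.95, 109 and 139 in eluates. ptc, the Hedgehog receptor and a segment polarity gene, was listed at 0 in both early eluates and stood at 126 and 243 in the blastoderm eluates, against 0.00932, 0.0317, 0.224 and 12.6 in the flow-throughs. The Hox genes Ubx and abd-A reached 21.1 and 18.3 in the cellular eluate and 1.2 each in its flow-through. The heat map of list medians by stage sets these groups side by side.

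**Figure D3:**
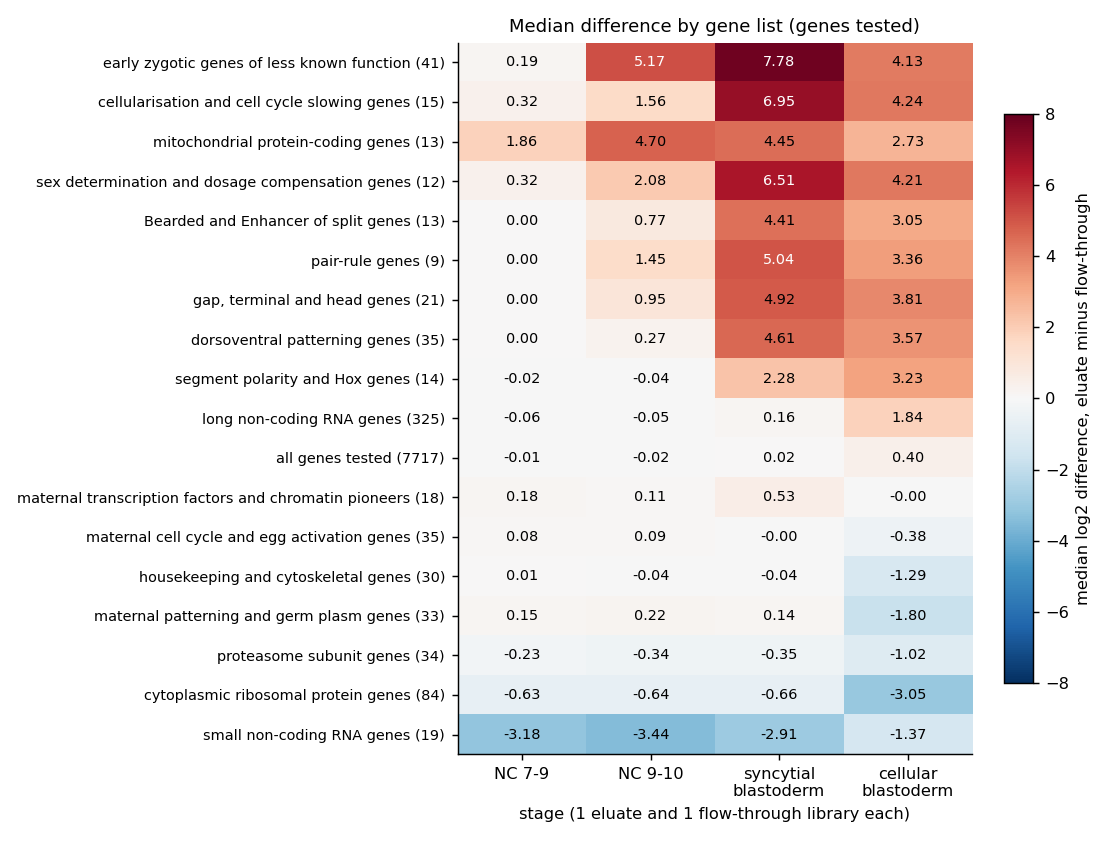
Median log2 difference of 17 gene lists and of all 7717 genes tested, eluate minus flow-through, by stage (columns, 1 pair of libraries each); brackets give the genes tested. The lists of early zygotic, cellularisation, sex determination, Bearded, pair-rule, gap and dorsoventral genes have medians of 4.41 to 7.78 at syncytial blastoderm, the mitochondrial protein-coding genes already stand at 1.86 at NC 7-9, and the small non-coding RNAs at −3.18.

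hb and cad, which pattern the long axis of the embryo, are known for both maternal and zygotic RNA. hb had 35.8, 52.2, 830.2 and 412 in eluates and 27, 26.6, 18.1 and 21.3 in flow-throughs. The difference was 0.40, 0.95, 5.44 and 4.21 by stage, and its change, blastoderm minus earlier stages, was 4.15 ± 0.63 (SE; limma adjusted p 0.121). cad had 181, 232, 431 and 452 in eluates against 160.5, 163, 109.6 and 61.5, a difference of 1.38 ± 0.48. In both genes the flow-through level was lower and the eluate level higher at the blastoderm stages than before. zld, the maternal factor that opens early zygotic enhancers, had 36, 45.6, 45.5 and 78.2 in eluates and 27.6, 31.4, 4.58 and 16.1 in flow-throughs, a difference of 1.54 ± 0.57.

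The 13 protein-coding genes of the mitochondrial genome encode subunits of the respiratory chain. All 13 lay at least 2-fold above the flow-through at all 4 stages, as 0.752% of all genes did, with a list median of 3.29 and medians by stage of 1.86, 4.70, 4.45 and 2.73. At NC 7-9 they were 13 of the 58 genes above by size and level. mt:ND2 (M:240-1263, plus strand), a subunit of respiratory complex I, had 1912, 14009, 5034 and 2174 in eluates and 283, 196, 86 and 192 in flow-throughs. All 4 eluates exceeded all 4 flow-throughs, with the NC 9-10 eluate highest. The differences were 2.75, 6.15, 5.86 and 3.50, with a mean of 4.56 ± 0.64 (SE, n = 4; limma adjusted p 0.207). With mt:ND3 and mt:ND6, mt:ND2 was 1 of 3 of the 13 called higher without NC 7-9, beside 115 of all 7717 genes.

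mt:CoI, the core subunit of cytochrome c oxidase, had 27580.5, 83974, 71057 and 57441 in eluates and 7155, 5475, 3384 and 7852 in flow-throughs, a difference of 3.29 ± 1.39. mt:Cyt-b, the cytochrome of complex III, had 6233, 33263, 30421 and 17008 in eluates against 2945, 2426, 2694 and 3143, a difference of 2.70 ± 0.89. Across the 13 genes the differences ran from 1.08 in mt:Cyt-b to 2.75 in mt:ND2 at NC 7-9 and from 3.06 in mt:ATPase8 to 5.93 in mt:ND4L at syncytial blastoderm. Of the 13, 5 overlap a neighbour on the same strand. The plot of mitochondrial differences shows every gene and stage.

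**Figure D4:**
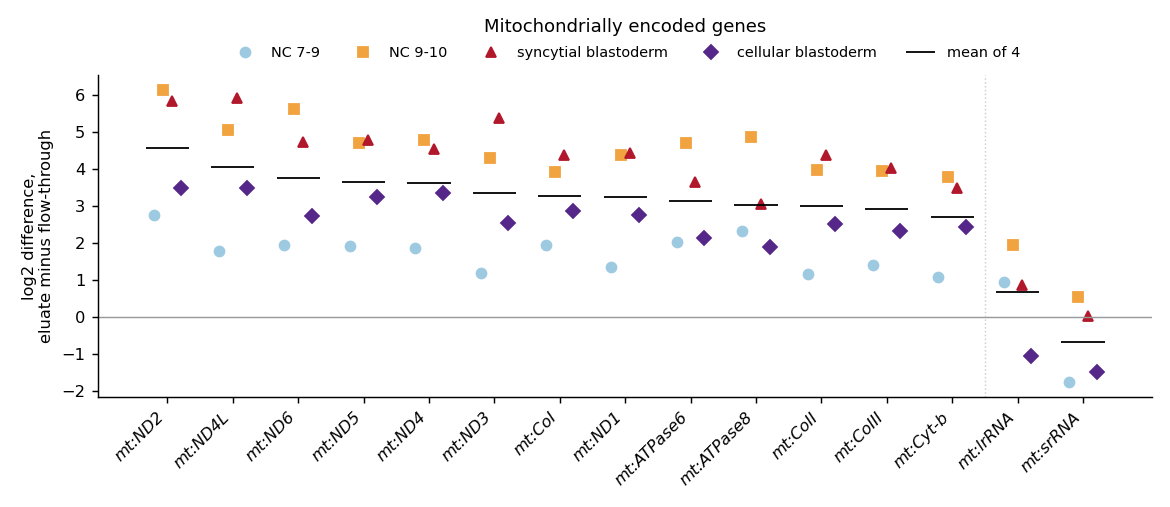
Log2 differences, eluate minus flow-through, of the mitochondrial genes at the 4 stages (markers, 1 pair of libraries each), with a line at the mean of 4. The 13 protein-coding genes lie above 0 at every stage, between 1.08 and 6.15, and the ribosomal RNA genes mt:lrRNA and mt:srRNA lie on both sides of 0.

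The mitochondrial ribosomal RNAs lay on both sides of 0. mt:lrRNA had 1344, 3392, 2441 and 392 in eluates and 696, 876, 1351 and 824 in flow-throughs, a difference of 0.67 ± 0.54, and mt:srRNA had 211, 797, 384 and 226 in eluates against 723, 552, 381 and 641, a difference of −0.68 ± 0.45. How far rRNA depletion removed mitochondrial copies is not given in the sources used here. As shares of the summed level per kilobase, the 13 protein-coding genes held 14.5%, 44.9%, 27.4% and 18.1% of eluates and 4.53%, 3.71%, 2.75% and 3.44% of flow-throughs. The eluate share was higher at 4 of 4 stages, 26.2% ± 13.6 against 3.61% ± 0.738 (SD, n = 4; exact paired permutation, two-sided p of 1 in 8, the smallest that 4 pairs allow). Weighted by exonic length, the shares were 13.8% ± 7.80 and 1.80% ± 0.342. Per kilobase, the ribosomal RNA genes held 0.199% ± 0.122 and 0.186% ± 0.0373 (exact paired permutation p 0.875). Removing the mitochondrial genes left 0 nuclear genes called.

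Small non-coding RNAs lay lowest. Of 55 listed, 19 were tested, and 14 of the 19 lay below the flow-through at all 4 stages, as 12.6% of all genes did, with 9 at least 2-fold. The list median was −2.67, and −3.18, −3.44, −2.91 and −1.37 by stage. RNaseP:RNA (FBgn0046696, 3R:31217364-31217662, minus strand), the catalytic RNA that trims the 5′ end of tRNA, had 166, 215, 775 and 467 in eluates and 1145, 1012, 2388 and 3331 in flow-throughs. All 4 eluates lay below all 4 flow-throughs, and both fractions were higher at the blastoderm stages. The differences were −2.78, −2.23, −1.62 and −2.83, with a mean of −2.37 ± 0.35 (SE, n = 4; limma adjusted p 0.207). RNaseMRP:RNA, which acts in rRNA processing, had 1160.3, 1427, 3595 and 3581 in eluates against 4369, 4590.3, 8666 and 9249, a difference of −1.56 ± 0.57. snmRNA:254, annotated within EF2 at 31 bases, had 88.2, 339, 1606 and 877 in eluates against 1621, 1575, 3348 and 5449.8, a difference of −2.52 ± 0.54. About 4.84 and 13.6 reads stood behind its NC 7-9 and NC 9-10 eluate levels.

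The guide RNAs that direct modification of spliceosomal RNA (scaRNA) include the gene with the smallest p of the whole test. scaRNA:MeU2-C28 (X:21051686-21051734, minus strand, 49 bases) was listed at 0 in all 4 eluates and had 170.0, 123, 49.5 and 49.4 in flow-throughs, about 162, 137, 17.7 and 35.3 reads. Its difference was −6.42 ± 0.59 (SE, n = 4; limma adjusted p 0.108), a value set by the added 1. Without the pairing by stage it was the 1 gene called, at a limma adjusted p of 0.00765. It passed the filter through its flow-throughs alone, and its eluates have no spread, so that call adds no support. scaRNA:PsiU5-44 had 8.07, 5.54, 0 and 31.2 in eluates, about 2, 1, 0 and 52.6 reads, against 100.1, 70.2, 54 and 212 in flow-throughs. scaRNA:MeU2-48 was low in early eluates and near the flow-through at cellular blastoderm, with 31.4, 18.5, 436 and 1449.7 against 585, 503, 919 and 1802.

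Of the 19 small RNAs, 8, 7, 9 and 2 stood at 0 in the eluates by stage and 1, 0, 0 and 0 in the flow-throughs, and the eluate with 2 zeros was the deepest. Annotation places 18 of the 19 inside another gene on the same strand, among them scaRNA:MeU2-C28 in CG1518 and RNaseP:RNA in ATPsynC, so their values are uncertain. As a share of the summed level, the 55 genes held 0.438% ± 0.245 of eluates and 1.83% ± 0.559 of flow-throughs, lower at 4 of 4 stages (SD, n = 4; exact paired permutation, two-sided p of 1 in 8, the smallest possible). Weighted by length, the difference was −0.18 percentage points in place of −1.39.

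Genes of the cytoplasmic ribosome lay below as a block. Of 84 tested, 78 lay below the flow-through at all 4 stages, as 12.6% of all genes did, with a list median of −1.25 and medians by stage of −0.63, −0.64, −0.66 and −3.05. At cellular blastoderm 82 of the 84 lay at least 2-fold below, against 23.5% of all genes. RpL39, a short protein of the large subunit, had 409, 458, 522 and 301 in eluates and 1167, 1033, 1577 and 3111 in flow-throughs. The eluate was lower at every stage and no eluate reached any flow-through, and the gap was widest at cellular blastoderm. The differences were −1.51, −1.17, −1.59 and −3.36, with a mean of −1.91 ± 0.44 (SE, n = 4; limma adjusted p 0.486).

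RpLP1 and RpLP2, the acidic stalk proteins, had mean differences of −1.70 ± 0.51 and −1.61 ± 0.76. The cellular eluate of RpLP2 stood at 1251 against 15715 in its flow-through. RpL41 had 2613, 3241, 2332 and 1105 in eluates against 6911, 6143, 7879 and 14772, a difference of −1.95 ± 0.73. As a share of the summed level, the 89 ribosomal protein genes held 6.33% ± 2.59 of eluates and 20.4% ± 6.36 of flow-throughs, lower at 4 of 4 stages (SD, n = 4; exact paired permutation, two-sided p of 1 in 8, the smallest possible). Weighted by exonic length, the shares were 2.91% ± 1.1 and 9.10% ± 3.61, a difference of −6.19 percentage points. The 34 proteasome subunit genes tested had a median of −0.42, 17 below at all 4 stages, and the 73 mitochondrial ribosomal protein genes −0.37, 21 below at all 4 stages, beside 12.6% of all genes.

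The 33 maternal patterning and germ plasm genes tested had medians of 0.15, 0.22, 0.14 and −1.80 by stage, and by size and level 2 of them lay below at syncytial and 22 at cellular blastoderm, against 15.6% and 23.5% of all genes. Relative to all genes the median over the stages was −0.41, and 0.14 without cellular blastoderm. nos, the posterior determinant, had 789, 876, 418 and 18.4 in eluates and 858, 769.8, 549.6 and 170.0 in flow-throughs. Both fractions were close at the first 3 stages and lower at cellular blastoderm, where the difference was −3.14. BigH1, the maternal linker histone, had 1026, 886, 403 and 17.8 in eluates against 950.3, 915, 429 and 156. gnu, a cofactor of the PNG kinase at egg activation, had 128, 168, 21.5 and 0.357 in eluates against 160.4, 141, 111 and 18. spz, the ligand of the Toll receptor, had 91.8, 94.1, 15.9 and 0.967 in eluates against 65.6, 68.1, 53.2 and 27.7. gnu and spz already lay at least 2-fold below at syncytial blastoderm, by −2.32 and −1.68.

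The 30 housekeeping and cytoskeletal genes had a median of −1.29 at cellular blastoderm, 17 of them at least 2-fold below (23.5% of all genes), and Gapdh2, a glycolytic enzyme, had 1204, 972, 392 and 11.6 in eluates and 1311, 1083, 399.9 and 120.0 in flow-throughs. The 35 genes of the maternal cell cycle and egg activation had a median of −0.38 there, with 15 at least 2-fold below, and 5 at syncytial blastoderm (15.6% of all genes). CycE, the S phase cyclin, lay above the flow-through at every stage, at 129, 154, 313 and 507 against 104, 108, 127 and 94.9. As a share of the summed level, the maternal lists together held 1.58% ± 0.548 of eluates and 2.08% ± 0.414 of flow-throughs (SD, n = 4; exact paired permutation p 0.25, two-sided).

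The size of the difference between fractions varied with stage, though past the threshold of the test for no gene. In limma's test of the change, blastoderm stages minus NC 7-9 and NC 9-10, 0 of 7717 genes were called in either direction (0% each), with a smallest adjusted p of 0.121, and 1076 lay above and 260 below at an unadjusted p under 0.05. That count moved strongly with the libraries, from 1 called gene without NC 7-9 and 16 without NC 9-10 to 4208 without syncytial and 907 without cellular blastoderm, where 1 stage alone stands for the blastoderm. The genes named next were picked after their values were seen. CG9775 had 150.4, 185, 3599 and 3143 in eluates and 158, 152, 165 and 157 in flow-throughs, so that the eluate alone was higher late, with a change of 4.27 ± 0.43 (SE; limma adjusted p 0.121). trbl, which halts mitosis, had 46.4, 47, 1719.5 and 3008 in eluates against 30.5, 33.8, 36.7 and 114. Sep5, a septin, had 42.7, 44.3, 3115 and 6209.7 in eluates against 41.4, 43.2, 66.6 and 298.

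Some genes crossed from below to above. Of the 4 genes at least 2-fold below at both earlier and above at both blastoderm stages, CG8360, CR43264, CR45135 and His4:CG33907, the replication-dependent histone His4:CG33907 had 20.5, 31.9, 857 and 555 in eluates and 106, 109.6, 147 and 107 in flow-throughs. His2B:CG33868 had 0.947, 1.3, 17.6 and 6.09 in eluates against 33.2, 19.6, 2.08 and 3.34, and about 1 read stood behind each of its early eluate values. His1:CG33834 had 49.1, 71.2, 135 and 81.1 in eluates against 44.3, 42.8, 36.8 and 22.9, above at all 4 stages. Only 3 of 111 replication-dependent histone genes passed the filter, and near-identical copies can share their reads, so these values are uncertain. The reverse crossing was seen in l(2)41Ab and TpnC4.

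The nuclear genes scyl, CG9821 and Hsp70Ab lay at least 2-fold above the flow-through at every stage. scyl, a stress-inducible growth inhibitor, had 398, 487, 213 and 482 in eluates and 165, 170.0, 19.9 and 45.3 in flow-throughs, a difference of 2.38 ± 0.45 (SE, n = 4; limma adjusted p 0.319). All 4 eluates exceeded all 4 flow-throughs. CG9821 had 19.6, 26.9, 28.5 and 39.6 in eluates against 6.85, 7.96, 5.82 and 11.9, a difference of 1.70 ± 0.46. Hsp70Ab, a heat shock protein gene with near-identical copies that can share reads, had 15.9, 17.3, 2.95 and 4.55 in eluates against 7.43, 5.21, 0.752 and 0.433. These genes were picked after their values were seen.

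The same contrast in the poly(A) set, with 7 pairs of which 2 had 50 mM 5-EU, is set beside these values and was not tested against them. There 36 genes (0.417% of 8632) were called higher and 18 (0.209%) lower by limma at an adjusted p below 0.05. With stage in place of preparation as the block the calls numbered 1184, and in the 4 preparations that match the stages of the rRNA-depleted set 0. Of the 36, 26 lay at least 2-fold above at all 4 stages of the rRNA-depleted set, and of the 18, 13 lay below at all 4. All 58 genes above in the rRNA-depleted set lay above 0 in the poly(A) set, with a median of 3.80. At cellular blastoderm 2562 genes were above by size in both sets, 89.0% of those in the rRNA-depleted and 91.4% of those in the poly(A) set, and at NC 7-9 the 11 shared genes were 19.6% and 61.1%. At NC 9-10 the shared genes above were 43.6% and 82.1%, and at syncytial blastoderm 43.0% and 66.4%. Of the genes below in the rRNA-depleted set, 9.05%, 5.60%, 20.2% and 85.4% by stage were shared. Of those below in the poly(A) set, the shared ones were 36.0%, 21.3%, 39.1% and 85.8%. The sets use the same preparation names, so they may hold the same RNA.

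By RNA class, the 16 small non-coding RNAs tested in poly(A) libraries had a median of −0.09 there and the 19 tested here −2.67. The 13 mitochondrial protein-coding genes had 1.58 there and 3.29 here. Cytoplasmic ribosomal protein genes had −1.30 and −1.25, and the early zygotic genes of less known function 3.60 and 4.44. The medians of all genes were 0.10 over the 7588 tested in both sets, 0.21 over all 8632 of the poly(A) set, and 0.05 here. The difference between sets was not tested, because each table was scaled on its own.

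**Figure D5:**
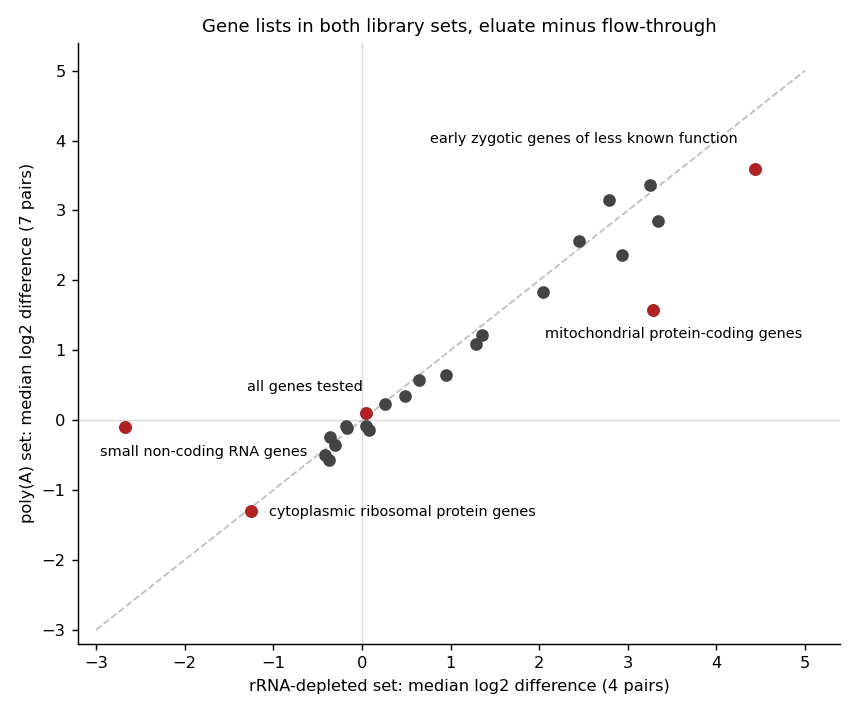
Median log2 difference of each gene list, eluate minus flow-through, in the rRNA-depleted set (horizontal, 4 pairs) and the poly(A) set (vertical, 7 pairs), with a dashed line where both are equal. Most lists lie near the line; small non-coding RNAs (−2.67 and −0.09) and mitochondrial protein-coding genes (3.29 and 1.58) lie off it.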

How the data were processed

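The authors deposited separate tables of 16407 genes, named RPKM, for 12 rRNA-depleted and 21 poly(A) libraries. The submitters' processing notes name STAR, HTSeq and dm6, and the labels' protocols a stranded kit, while versions, filters, the strand setting of the counting and the scaling are not given there. The deposited RPKM values hold an added 1 and an unknown factor per library, as the values show: 68.8% to 82.1% of low values less 1 in the 8 libraries are whole multiples of 1 step within 0.02. Deposited totals were 0.698 to 5.22 M (M, 1000000) in eluates and 9.74 to 49.3 M in flow-throughs. Read numbers are estimated from these steps, and for that reason neither count models nor counting intervals were used.

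After subtraction of 1, libraries were brought to a sum of 1000000 and then adjusted by the median of ratios over genes above 0 in all 8. Genes with a level of at least 1 in 2 or more libraries (7717) were tested as log2(value + 1) with limma 3.58.1 in R 4.3.3 (empirical Bayes with mean trend, stage as block, 3 residual degrees of freedom, Benjamini-Hochberg, adjusted p below 0.05). The poly(A) set (14 libraries, 8632 genes) was fitted the same way on its own. Shares were compared with exact paired permutations. Python 3.11.15, pandas 2.3.3 and numpy 2.4.6 did the rest.

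Stage pairs the fractions, since the titles give both the same preparation name. Checked on the values, the deviations of eluate and flow-through from their fraction means correlated at 0.635, 0.496, 0.263 and 0.511 within the 4 stages, which also reflects the stage itself, and were not always highest with the own stage (0.641 between the NC 7-9 eluate and the NC 9-10 flow-through). Of 16407 symbols, 16320 matched the BDGP6.54 gene annotation of Ensembl release 115, whose coordinates are those of dm6.

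Members and gene lists were chosen with earlier results of these data known. The text was to name the 15 genes each way with the largest difference among those that passed, the 5 each way with the largest change, and up to 6 genes per list by largest difference. No gene passed, so other named genes (among them CG9775, trbl, Sep5, scyl, CG9821, zld, hb, cad and CycE, and members outside the 6 largest of a list) were chosen after their values were seen. Alternatives were the scaling, the added value, the filter, the trend, the block, leaving out each stage and, chosen after seeing the data, leaving out mitochondrial genes and using 4 matched poly(A) preparations. Aborted transcripts, retained introns and sequences were not analysed here.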

Additional observations from a re-analysis of the deposited data

Results flagged for a closer look

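Each of 120 values over the 4 stages was checked for 1 stage far from the others, by the gap to its nearest neighbour as a part of the whole range, against Dixon's 95% limit for 4 values; chance exceeds it in about 1 in 20. In each case found, cellular blastoderm stood apart, the stage whose eluate was also the deepest. Among single genes the gap was 0.987 in RpLP1, 0.995 in RpLP2, 0.936 in BigH1 and 0.961 in Gapdh2. Among list medians it was 0.984 for cytoplasmic ribosomal protein genes, 0.960 for maternal patterning and germ plasm genes, 0.964 for housekeeping and cytoskeletal genes, 0.847 for proteasome subunit genes and 0.884 for long non-coding RNA genes. The last alone lay higher at cellular blastoderm and the others lower.

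Other values lay on one side of 0 at both earlier stages and on the other at both blastoderm stages. The differences that follow are blastoderm minus earlier, and for lists the difference itself was not tested. Segment polarity and Hox genes differed by 2.79, replication-dependent histone genes (3 tested) by 4.19, long non-coding RNA genes by 1.06, maternal cell cycle and egg activation genes by −0.28, mRNA decay and repression regulators by −0.76 and pole cell markers by −0.35. For single genes limma's test of the change gave adjusted p-values above 0.05. ptc differed by 5.46 ± 1.09 (limma adjusted p 0.122) and abd-A by 3.72 ± 0.69 (limma adjusted p 0.121). spz differed by −3.25 ± 0.90 (limma adjusted p 0.202). His4:CG33907 differed by 4.48 ± 0.43 and His2B:CG33868 by 5.30 ± 1.01 (limma adjusted p 0.121 and 0.121), both from copies that can share reads. CR43604, a long non-coding RNA of 201 bases, had 61.5, 38.4, 827 and 1801 in eluates and 1167, 684, 656 and 1414 in flow-throughs and differed by 4.51 ± 0.45 (limma adjusted p 0.121).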

How the results depend on the processing

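The number of genes called depended on scaling, stages and the added value, and list medians, taken relative to all genes, changed sign in the cases below. Against 0 genes called over the 4 stages, there were 6782 with values as deposited, 122 scaled to 1000000 only, 20 with 0.1 added, 1 without the replicate block, and 0 to 118 leaving out a stage; without filter (13197 genes), with 5 added, without trend, with robust variances, with 5 or more in at least 4 libraries or without mitochondrial genes it was 0. For the change of the difference, against 0, there were 1685 as deposited, 285 scaled to 1000000 only and 1 to 4208 leaving out a stage. In the poly(A) set, against 54, there were 1184 with stage in place of preparation as the block and 0 in 4 matched preparations. Genes at least 2-fold above at every stage, 58, became 9 as deposited, 25 with 5 added and 61 to 211 leaving out a stage, and those below, 24, became 5698, 13 and 38 to 65, with 67 scaled to 1000000 only and 52 with 0.1 added. As deposited, medians relative to all genes were 5.17 for gap, 5.64 for pair-rule, 4.90 for segment polarity and Hox, 5.02 for dorsoventral, 5.85 for sex determination and 5.34 for Bearded genes, 1.97 for long non-coding RNAs, 3.45 for yolk, hemocyte and amnioserosa markers and 4.84 for older tissue markers. The small non-coding RNAs stood at −4.14 with 0.1 added, and their share differed by −0.18 percentage points weighted by length. Under 5 or more in at least 4 libraries, which tests fewer genes, the yolk, hemocyte and amnioserosa markers turned to −0.16 and long non-coding RNAs to −0.40. Leaving out each stage in turn, list medians that changed sign ran from −0.26 to 1.12 for snoRNA hosts, −0.73 to 0.14 for maternal patterning, −0.28 to 0.07 for maternal cell cycle, −0.44 to 0.20 for mRNA decay, −0.14 to 0.12 for histone variants and −0.05 to 0.02 for pole cell markers. Without filter the snoRNA hosts and long non-coding RNAs stood at −0.14 and −0.05, with 0.1 added the hosts at −0.06 and pole cell markers at 0.04, as deposited histone variants at −0.05, and pole cell markers were also above 0 with 5 or more in at least 4 libraries (0.11) and without mitochondrial genes. His4:CG33907, the middle of the 3 replication-dependent histone genes, ran from −0.69 to 0.97 leaving out a stage, below 0 without syncytial or without cellular blastoderm (−0.53). Where no cause is given, the cause was not tested. The replicate block changed no other call. With 4 pairs and 3 eluates below 3 M reads, a level of 1 in a short gene rests on 1 read or none at the first 3 stages, and 4 pairs cannot give an exact two-sided p below 1 in 8.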

Other observations

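Of 13 Bearded and Enhancer of split genes tested, which act in Notch signalling, 4 lay above the flow-through at all 4 stages (10.9% of all genes did) and none below, with a list median of 2.93 and medians by stage of 0, 0.77, 4.41 and 3.05. Relative to all genes the list median was 2.89, and 1.37 without syncytial blastoderm. By size and level 1 of the 13 was above at NC 7-9 and 5 at NC 9-10 (0.752% and 2.77% of all genes). Ocho, a Notch pathway antagonist of the Bearded family, had 2.84, 55.2, 616 and 580.3 in eluates and 0.0863, 0.11, 1.61 and 56.5 in flow-throughs. E(spl)m4-BFM, of the same family, had 5.2, 39.8, 398 and 236 in eluates against 0.136, 0.0577, 3.8 and 19.1. Tom was listed at 0 in the NC 7-9 eluate and had 33.8 at NC 9-10 and 4196 at cellular blastoderm, against 0.107, 0.455, 7.42 and 437 in flow-throughs. The death gene rpr was listed at 0 in both early pairs and had 72.5 and 82.4 in the blastoderm eluates, against 0 and 4.18 in the flow-throughs. skl, another death gene, had 0, 0, 114 and 156 in eluates against 0, 0.0634, 0.298 and 8.33 in flow-throughs. Of 15 cell death and stress genes tested, 10 lay at least 2-fold above at cellular blastoderm, against 37.6% of all genes. Another 3, CG6272, Hsp26 and Hsp27, lay at least 2-fold below there, against 23.5% of all genes.

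Few long non-coding RNAs passed the filter. Of 2364, 325 were tested, 8 lay above at all 4 stages and 34 below, where 10.9% and 12.6% of all genes did, and their median of 0.65 turned negative under the stricter filter. CR45916 had 1.59, 24.9, 514 and 192 in eluates and 0.0132, 0.124, 0.846 and 6.79 in flow-throughs, a difference of 4.66 ± 1.04. CR43887 had 0, 39.6, 8375 and 18609.6 in eluates and 0.195, 0.581, 52.9 and 1521 in flow-throughs. The 6 host genes of small nucleolar RNA tested all lay at least 2-fold above at cellular blastoderm, against 37.6% of all genes, with Uhg1 at 8.35, 30.1, 86.4 and 731 in eluates and 15, 15.9, 20.6 and 60.7 in flow-throughs. At syncytial blastoderm 3 of the 6 lay above and 2 below, against 18.3% and 15.6% of all genes. Those 2, Uhg3 and Uhg4, were at 0 in that eluate, with differences of −4.39 and −4.53. At NC 7-9, 5 of the 6 lay below 0, as did 3917 of 7717 genes. Mdr49, a transporter that guides germ cells, had 0, 2.01, 535 and 1655 in eluates against 0.0121, 0.031, 0.421 and 53.1. elav, a neuronal marker, reached 38.7 in the cellular eluate and 1.96 in its flow-through. It was the only 1 of the 6 older tissue markers with a level of 5 or more. In that eluate nSyb, repo, Act57B, Mhc and Mlc1 stood at 2.26, 0.551, 0.526, 0.359 and 0.0581.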
